A study of Mus musculus with 12 samples.

Results

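Genes of glucose uptake, glycolysis, and lactate and pyruvate handling were followed in RNA sequencing of 12 mouse melanoma tumors, 6 of them Arf6null and 6 Arf6wt. The 34 genes were listed by these roles, with earlier results of these data known. They were matched by symbol, and 34 of 34 were found among the 55487 gene identifiers of the deposited count table. Arf6null tumors carried the genotype BrafCA;Cdkn2af/f;Arf6f/f and Arf6wt tumors the genotype BrafCA;Cdkn2af/f, so both groups shared a Cre-activated oncogenic Braf allele and floxed Cdkn2a, a tumor suppressor locus. Arf6 encodes a small GTPase of membrane trafficking. The labels name no Cre driver, treatment, age or sex, and do not state that each tumor is from its own animal. The p-values therefore measure the spread among these samples only. The design text describes the groups as matched without naming pairs of tumors. Library numbers ran from 19 to 24 in Arf6null and from 1 to 6 in Arf6wt tumors, so anything that followed the library number cannot be told apart from genotype.

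Libraries held 21007954 to 45688253 counts in Arf6null and 22211738 to 30326419 counts in Arf6wt tumors. Arf6 was at 18.3 ± 3.73 CPM (the counts of a gene relative to the scaled total of its library) in Arf6null and 111 ± 24.9 CPM in Arf6wt tumors (SD, n = 6 each). Defining genes of pigment cells were at or near 0 in tumors labelled melanoma: Mlana had no count in any library, Tyr at most 2, Dct and Tyrp1 at most 1 and Sox10 at most 33, and 5 of 14 melanocyte markers had enough counts for a test. Replicates 3, 4 and 5 of the Arf6wt tumors stood apart by skeletal muscle markers, with a mean log2 CPM over 22 markers of 6.64, 5.31 and 6.27, against at most 2.78 in the other 9 tumors. They are called muscle-rich here, and results that rest on them are given with and without them. Arf6null replicate 6 and Arf6wt replicates 3, 5 and 6 had at most 0.444 CPM summed over Y-linked genes, Arf6wt replicate 1 had 22.3 CPM, and the other 7 tumors had 148 to 248 CPM. In bulk tumor RNA, fewer cells of a type and less RNA per cell cannot be told apart.

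Glycolysis splits glucose into pyruvate in a chain of cytosolic enzymes, with a small yield of ATP. Pyruvate is then either reduced to lactate and exported, a route that many tumors favor even where oxygen is present, or carried into mitochondria and burned. Several steps have alternative enzymes made by different genes, and many of these genes are known targets of the hypoxia-inducible transcription factors.

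Most of the 34 genes were higher in Arf6null tumors, and few of them passed the test singly. Because the 34 were chosen with earlier results of these data known, the shares over all genes are given for scale. They are not independent support for a change of the pathway. Of 18 other tested isozymes and transporters of the same steps, 9 had a positive and 9 a negative log2 fold change. Of the 34 genes, 4 rose in Arf6null tumors at an edgeR adjusted p under 0.05: Gpi1 and Tpi1, the isomerases of hexose and triose phosphates, Pfkl, the liver-type phosphofructokinase, and G6pc3, a glucose-6-phosphatase found in most tissues. The share of all 16225 tested genes that rose was 0.586%. None of the 34 fell by edgeR, against 0.561% of all genes. At an unadjusted p under 0.05, 20 of the 34 were higher and 2, Pfkm and Mpc2, were lower, against 11.0% and 12.4% of all tested genes. DESeq2 called 17 higher and 1, Pfkm, lower, with 5.78% and 6.48% of all genes called, and limma-voom called 15 higher and the same 1 lower, with 2.98% and 2.76%. Beside the 4, both tools called Slc2a1, Slc2a3, Hk1, Aldoa, Gapdh, Pgk1, Pgam1, Pkm, Ldha, Slc16a3 and Pdk1 higher, and DESeq2 also Eno2 and Gys1. The log2 fold change (Arf6null over Arf6wt) was positive for 29 of the 34, against 47.2% of all genes, and its median was 0.75 over the 34 and -0.03 over all genes.

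**Figure D1:**
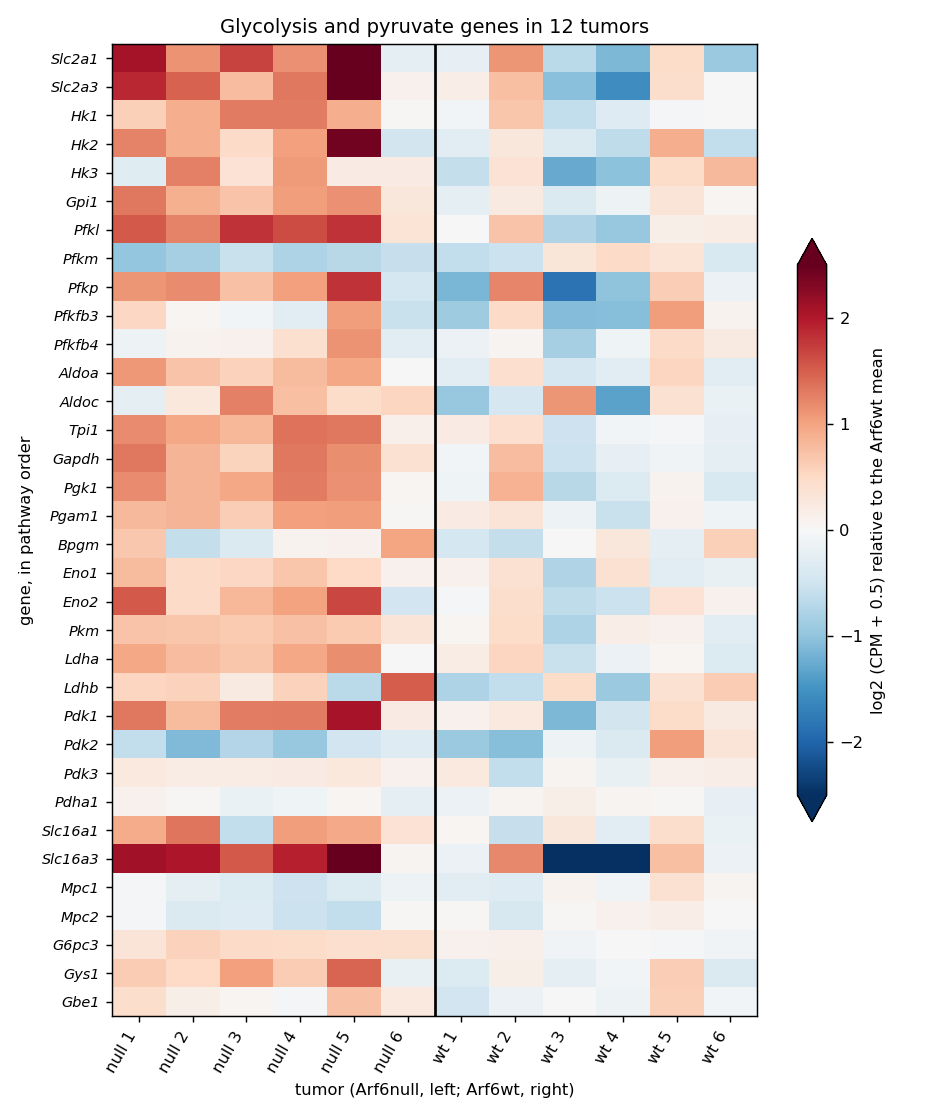
Level of each of the 34 genes in each tumor, as log2 of CPM plus 0.5 relative to the mean of the 6 Arf6wt tumors, with genes in pathway order from uptake to glycogen, Arf6null tumors left of the line and Arf6wt tumors right of it. Colors saturate at the ends of the scale. Arf6null replicates 1 to 5 are red over most rows, Arf6null replicate 6 is close to the Arf6wt tumors, and Arf6wt replicate 2 is red over many rows.

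The groups overlapped, for some genes only through Arf6null replicate 6. The median over the 34 genes of the log2 ratio to the Arf6wt mean was 0.75, 0.70, 0.56, 0.88, 1.005 and 0.06 in Arf6null replicates 1 to 6 and -0.14, 0.30, -0.46, -0.29, 0.37 and -0.09 in Arf6wt replicates 1 to 6. Arf6null replicate 6 thus lay within the Arf6wt range. It was the lowest tumor of its group for 23 of the 34 genes, and only 3 genes in it exceeded every Arf6wt tumor, against 18 to 25 in the other Arf6null tumors. Its summed Y-linked expression was 0.4443 CPM, against 147.5 to 218.2 CPM in the other Arf6null tumors. Within this group, what followed Y-linked expression cannot be told apart from what was particular to this tumor. In 13 of the 34, Arf6null replicates 1 to 5 were above every Arf6wt tumor and replicate 6 was not, a pattern described after the values were seen and held by 1.30% of all tested genes. G6pc3 alone of the 34 separated the groups without overlap, against 1.15% of all genes with every Arf6null tumor above, and 0 of the 34 had every Arf6null tumor below, against 1.21%. Among Arf6wt tumors, replicate 2 was the highest for 15 of the 34 genes and lay within the Arf6null range for 28. Replicate 5 was the highest for 12 and lay within that range for 23. In 5 of the 34 genes, those with a negative log2 fold change, no Arf6null tumor exceeded every Arf6wt tumor.

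The number of calls depended on single tumors and on the setting. Testing without a filter on low counts left 3, against 0.216% of all genes, with Pfkl at an edgeR adjusted p of 0.0562. Without Arf6null replicate 6, 15 of the 34 rose by edgeR, against 2.01% of all genes, and without Arf6wt replicate 2, 11 rose, against 2.38%, and Pfkm fell, against 2.32%. Leaving out any other single tumor left 0 to 4 higher, against 0.0792% to 1.56% of all genes. It left 0 without Arf6null replicate 2 or Arf6wt replicate 3, 4 or 6, with 20 to 21 of the 34 higher at an unadjusted p under 0.05. It left 1 without Arf6null replicate 1, 4 or 5 or Arf6wt replicate 1, 2 without Arf6null replicate 3, and 4 without Arf6wt replicate 5. Without the 3 muscle-rich tumors, or with the muscle score or summed Y-linked expression as a covariate, no gene of the 34 passed by edgeR, against 0.0824%, 0.0308% and 0.0863% of all genes higher, while 18, 14 and 16 of the 34 were higher at an unadjusted p under 0.05. The median log2 fold change of the 34 was then 0.69, 0.66 and 0.61.

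Promoter sequences are shown because many of the genes are textbook targets of hypoxia-inducible factors, which read ACGTG or GCGTG. Many are also targets of factors that read the E-box CACGTG. RefSeq windows of 300 bases around the transcription start (build GRCm38.p6) matched 33 of the 34 genes by symbol; Slc2a3 was not matched. On either strand ACGTG was found for 18 of the 33 genes, 54.5%, against 21.8% of all 27025 symbols with a window and 28.2% of the 11571 tested symbols matched. GCGTG was found for 20, 60.6%, against 35.2% of all symbols and 53.6% of tested ones, and CACGTG for 6, 18.2%, against 8.09% and 11.2%. CACGTG holds ACGTG on both strands, so its matches are also counted there. Ldha had the most ACGTG matches of the 33, 5 in a window, and G6pc3 followed with 4. Those of G6pc3, and 4 of the 5 of Ldha, are the 2 strands of 2 E-boxes. Of the 4 genes that rose, Gpi1, Tpi1 and Pfkl had no ACGTG in these windows, and Pfkl had 1 GCGTG. A match describes letters in the window and not bound factor. A list with many known targets can hold more matches whatever its levels in these tumors. The part of these factors in the levels was not tested. The windows of G6pc3, Ldha and Pfkl follow 5′ to 3′ on the gene's strand, with ACGTG and its reverse complement CACGT in capitals.
G6pc3, chr11:102189449-102189748, plus strand: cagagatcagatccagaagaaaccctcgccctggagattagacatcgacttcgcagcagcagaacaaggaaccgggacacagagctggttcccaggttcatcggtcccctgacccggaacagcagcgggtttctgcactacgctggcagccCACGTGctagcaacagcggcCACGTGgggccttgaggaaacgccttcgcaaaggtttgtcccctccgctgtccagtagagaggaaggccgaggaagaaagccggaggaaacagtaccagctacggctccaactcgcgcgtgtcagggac
Ldha, chr7:46845554-46845853, plus strand: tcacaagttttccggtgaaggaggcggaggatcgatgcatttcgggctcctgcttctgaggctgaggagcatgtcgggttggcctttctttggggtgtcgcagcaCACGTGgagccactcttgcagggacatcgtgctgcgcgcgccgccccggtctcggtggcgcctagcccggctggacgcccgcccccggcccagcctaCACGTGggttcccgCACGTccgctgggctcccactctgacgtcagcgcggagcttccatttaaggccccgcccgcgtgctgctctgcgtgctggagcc
Pfkl, chr10:78009758-78010057, minus strand: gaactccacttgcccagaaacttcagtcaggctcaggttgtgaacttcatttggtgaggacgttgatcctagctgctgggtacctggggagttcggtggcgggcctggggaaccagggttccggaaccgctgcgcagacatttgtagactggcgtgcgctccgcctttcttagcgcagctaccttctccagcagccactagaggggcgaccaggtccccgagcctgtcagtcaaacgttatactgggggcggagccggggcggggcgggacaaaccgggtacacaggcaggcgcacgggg
In the G6pc3 window the capitals begin 99 and 79 bases before the start, and in the Ldha window 145, 48 and 34 bases before it. The final bases of this Ldha window were not found as an unbroken string in the early part of a GENCODE transcript of Ldha. A start or splice site within those bases would also give no match. The start of the window lay 4329 bases from the GENCODE gene start, and whether it is used in these tumors was not tested.

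Glucose uptake genes had the highest ratio of Arf6null to Arf6wt summed level among the 19 steps, and both genes passed with DESeq2 and limma-voom but not with edgeR. RPKM here is CPM per kilobase of exon. Slc2a1 and Slc2a3, the facilitative glucose transporters GLUT1 and GLUT3, summed to 133 ± 77.4 RPKM in Arf6null and 42.6 ± 26.8 RPKM in Arf6wt tumors (SD, n = 6 each, here and below), a ratio of 3.12. Slc2a1 ran from 112 to 775 CPM with a median of 357 in Arf6null tumors and from 60.1 to 281 CPM with a median of 97.6 in Arf6wt tumors. In Arf6null replicates 1 to 5 it exceeded every Arf6wt tumor, and replicate 6, at 112 CPM, lay below Arf6wt replicates 1, 2 and 5. The log2 fold change of Slc2a1 was 1.63 (SE 0.49, adjusted p = 0.0844 by edgeR), and that of Slc2a3 was 1.70 (SE 0.50, adjusted p = 0.0813 by edgeR), with adjusted p of 0.0113 and 0.00939 by DESeq2 and 0.0408 and 0.0469 by limma-voom. The share of Slc2a1 in their sum was 87.3% in both groups.

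The hexokinases, which trap glucose as glucose-6-phosphate, summed to 52.3 ± 15.2 RPKM in Arf6null and 27.5 ± 8.94 RPKM in Arf6wt tumors, and none of the 3 genes passed by edgeR. Hk1, the broadly expressed form and the most abundant per length, ran from 146 to 353 CPM (median 268) in Arf6null and from 92.7 to 231 CPM (median 138) in Arf6wt tumors, with a log2 fold change of 0.91 (SE 0.25, adjusted p = 0.0712 by edgeR, 0.00992 by DESeq2 and 0.0399 by limma-voom). Of the Arf6null tumors 4 exceeded every Arf6wt tumor. The inducible Hk2 averaged 83.1 ± 58.6 CPM in Arf6null and 36.0 ± 17.6 CPM in Arf6wt tumors, with edgeR adjusted p = 0.134. Hk3, known from myeloid cells, averaged 26.5 ± 11.3 CPM in Arf6null and 17.7 ± 10.04 CPM in Arf6wt tumors (edgeR adjusted p = 0.404). Of 16 macrophage and monocyte markers, summing to 2115 to 3346 CPM in Arf6null and 1671 to 5084 CPM in Arf6wt tumors, 0 were called by edgeR, DESeq2 or limma-voom, with 0 higher and 1 lower at an unadjusted p under 0.05. The mix of the 3 hexokinases differed little: Hk1 held 60.4 ± 9.49% of their summed RPKM in Arf6null and 61.3 ± 7.93% in Arf6wt tumors.

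G6pc3, which works against hexokinase by removing the phosphate of glucose-6-phosphate, had the smallest p of the 34. It lies on chromosome 11 at 102189620 to 102194081 of GRCm38. Its level ran from 50.2 to 59.6 CPM (median 54.4) in Arf6null and from 37.5 to 43.7 CPM (median 39.1) in Arf6wt tumors. Every Arf6null tumor, replicate 6 included at 52.6 CPM, was above every Arf6wt tumor, muscle-rich or not. The mean was 54.5 ± 3.21 CPM in Arf6null and 40.0 ± 2.696 CPM in Arf6wt tumors (SD, n = 6 each), a 1.36-fold difference (log2 fold change 0.45, SE 0.07, adjusted p = 0.0226 by edgeR). The call was kept in 8 of the 12 fits that leave out 1 tumor and was lost without Arf6null replicate 2 (adjusted p = 0.058) or Arf6wt replicate 3, 4 or 6 (0.0522, 0.0542 and 0.0554). Without all 3 muscle-rich tumors the log2 fold change was 0.41 (edgeR adjusted p = 0.145).

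Gpi1 converts glucose-6-phosphate to fructose-6-phosphate and has no alternative enzyme among the 34. The gene spans 34201330 to 34230336 of chromosome 7. It ran from 525 to 1083 CPM (median 852) in Arf6null and from 339 to 538 CPM (median 422) in Arf6wt tumors, and overlapped only through Arf6null replicate 6 at 525 CPM and Arf6wt replicate 5 at 538 CPM. The log2 fold change was 0.94 (SE 0.18, adjusted p = 0.0346 by edgeR). In 4 of the 12 fits that leave out 1 tumor it passed, those without Arf6null replicate 3 or 6 or Arf6wt replicate 2 or 5, and in the other 8 the adjusted p ran from 0.0548 to 0.0795. Without the muscle-rich tumors the log2 fold change was 0.92 (edgeR adjusted p = 0.146).

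Phosphofructokinase, the committed step of glycolysis, changed in make-up. Pfkl (liver type), Pfkm (muscle type) and Pfkp (platelet type) encode subunits of the same tetramer. Pfkl, on chromosome 10 at 77986947 to 78010083, ran from 165 to 456 CPM (median 386) in Arf6null and from 67.2 to 212 CPM (median 137) in Arf6wt tumors. Only Arf6null replicate 6, at 165 CPM, lay below an Arf6wt tumor, replicate 2 at 212 CPM. Its means were 359 ± 109.8 CPM in Arf6null and 129 ± 53.1 CPM in Arf6wt tumors (log2 fold change 1.47, SE 0.31, adjusted p = 0.0448 by edgeR). The muscle-rich Arf6wt tumors had 76.2, 67.2 and 144 CPM of Pfkl, and without them the log2 fold change was 1.15 (edgeR adjusted p = 0.189). Of the 12 fits that leave out 1 tumor, Pfkl passed in 3, those without Arf6null replicate 6 or Arf6wt replicate 2 or 5, and in the others the adjusted p ran from 0.0674 to 0.0953.

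Pfkm had a negative log2 fold change and did not pass the test. It ran from 45.9 to 61.3 CPM (median 54.2) in Arf6null and from 58.7 to 127 CPM (median 90.5) in Arf6wt tumors (log2 fold change -0.73, SE 0.20, adjusted p = 0.0700 by edgeR). The 3 muscle-rich Arf6wt tumors held 111, 127 and 114 CPM, and the other 3 held 58.7, 62.7 and 69.7 CPM. Without the muscle-rich tumors the log2 fold change was -0.21 (edgeR adjusted p = 0.429). Pfkp averaged 135 ± 59.0 CPM in Arf6null and 65.0 ± 52.0 CPM in Arf6wt tumors (edgeR adjusted p = 0.238), with Arf6wt replicate 2 at 153 CPM above 5 of the Arf6null tumors. Reads of Pfkp and of Pitrm1, which overlap on opposite strands over 748 exon bases, could not be told apart without the strand setting of the counter.

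**Figure D2:**
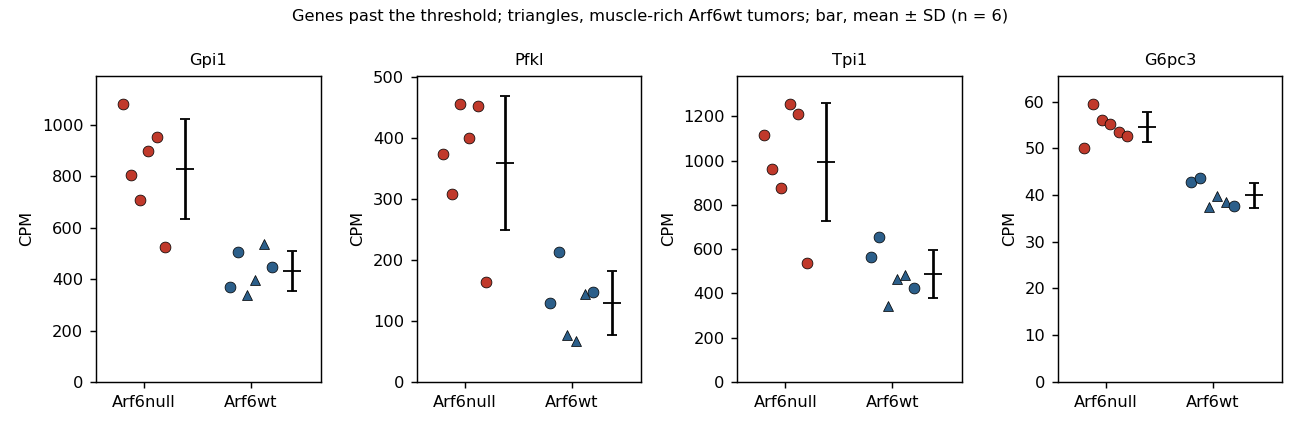
CPM of Gpi1, Pfkl, Tpi1 and G6pc3 in each tumor, Arf6null left and Arf6wt right, with triangles for the 3 muscle-rich Arf6wt tumors and a bar for mean ± SD (n = 6 each). G6pc3 shows no overlap, with Arf6null tumors from 50.2 to 59.6 CPM, and in the other panels 1 Arf6null tumor reaches into the Arf6wt range.

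Within the summed RPKM of Pfkl, Pfkm and Pfkp, the Pfkl share was 69.8%, 63.6%, 72.0%, 69.9%, 66.7% and 53.3% in Arf6null replicates 1 to 6 and 49.4%, 51.3%, 24.8%, 19.98%, 34.1% and 46.6% in Arf6wt replicates 1 to 6. All 6 Arf6null tumors were above all 6 Arf6wt tumors. The difference was 28.2 percentage points (exact permutation p = 0.00217, two-sided, the smallest that these 12 tumors can give; adjusted p = 0.0390 over 18 shares). The Pfkm share was 21.9 ± 8.54% in Arf6null and 53.5 ± 17.5% in Arf6wt tumors, 31.6 points lower in Arf6null (difference -31.6 points, exact permutation p = 0.00433, adjusted p = 0.0390). Arf6null replicate 6 had a Pfkm share of 39.0% and overlapped Arf6wt replicate 2 at 30.3%. The size of these shares depends on the exon lengths used, 3340 bases for Pfkm, 6675 for Pfkl and 13401 for Pfkp. By CPM, without length, Pfkl had the highest mean in Arf6wt tumors, at 129 CPM against 90.6 for Pfkm and 65.0 for Pfkp. Leaving out 1 tumor at a time gave a Pfkl difference of 24.7 to 30.9 points and a Pfkm difference of -36.3 to -27.3 points. The 462 splits of 11 tumors give a p of 0.00433 at the least, or 0.0779 when multiplied by the 18 shares, so whether a share passed there depended on how many other shares came near that floor, and no call is drawn from those cases. Without the muscle-rich tumors, whose Pfkm shares were 72.4%, 75.3% and 54.2%, the differences were 16.8 points for Pfkl and -17.9 points for Pfkm. No call is drawn from these 9 tumors either, since their 84 splits give a p of 0.0238 at the least, or 0.429 when multiplied by the 18 shares.

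The bifunctional enzymes Pfkfb3 and Pfkfb4, which set the level of the phosphofructokinase activator fructose-2,6-bisphosphate, differed between groups by less than their spread. Pfkfb3 ran from 29.6 to 91.3 CPM (median 43.5) in Arf6null and from 20.3 to 90.6 CPM (median 35.0) in Arf6wt tumors (log2 fold change 0.23, SE 0.41, adjusted p = 0.777 by edgeR). Without Arf6null replicate 5, its highest tumor, the log2 fold change was -0.02. Pfkfb4 was at 28.7 ± 11.7 CPM in Arf6null and 23.1 ± 6.65 CPM in Arf6wt tumors (edgeR adjusted p = 0.508).

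Among the triose steps Tpi1 passed by edgeR, and its neighbors in the chain, Aldoa and Gapdh, passed by DESeq2 and limma-voom only. Tpi1, on chromosome 6 at 124810586 to 124814296, ran from 536 to 1257 CPM (median 1038) in Arf6null and from 343 to 654 CPM (median 474) in Arf6wt tumors. Arf6null replicates 1 to 5, from 874.5 CPM up, lay above every Arf6wt tumor, and replicate 6 lay below Arf6wt replicates 1 and 2. The log2 fold change was 1.02 (SE 0.21, adjusted p = 0.0435 by edgeR). It passed in 3 of the 12 fits that leave out 1 tumor, those without Arf6null replicate 6 or Arf6wt replicate 2 or 5, with adjusted p from 0.0601 to 0.0937 in the others, and was 0.87 without the muscle-rich tumors (edgeR adjusted p = 0.213). Aldoa, the main aldolase, ran from 968 to 2042 CPM (median 1616) in Arf6null and from 723 to 1391 CPM (median 796) in Arf6wt tumors (log2 fold change 0.73, SE 0.22, adjusted p = 0.0860 by edgeR, 0.0232 by DESeq2 and 0.0356 by limma-voom). Against its brain-type relative Aldoc, Aldoa held 98.7% or more of their summed RPKM in every tumor.

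Gapdh, the dehydrogenase that makes NADH, ran from 1102 to 2110 CPM (median 1713) in Arf6null and from 585 to 1436 CPM (median 767) in Arf6wt tumors (log2 fold change 0.97, SE 0.24, adjusted p = 0.0595 by edgeR, 0.00274 by DESeq2 and 0.0226 by limma-voom). Arf6wt replicate 2, at 1436 CPM, was above Arf6null replicates 3 and 6, and the other Arf6wt tumors stayed at or below 807 CPM. Pgk1, the first ATP-making kinase of the chain, ran from 139.7 to 334 CPM (median 279) in Arf6null and from 82.6 to 246 CPM (median 116) in Arf6wt tumors (log2 fold change 0.97, SE 0.27, adjusted p = 0.0743 by edgeR). Arf6null replicates 2 and 6, at 243 and 139.7 CPM, lay below Arf6wt replicate 2 at 246 CPM, and Arf6null replicate 6 also below Arf6wt replicate 5 at 144 CPM.

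Phosphoglycerate mutase and enolase followed. Pgam1 ran from 46.7 to 94.4 CPM (median 81.8) in Arf6null and from 30.9 to 57.4 CPM (median 46.0) in Arf6wt tumors (log2 fold change 0.77, SE 0.18, adjusted p = 0.0590 by edgeR). Bpgm, which makes and removes the hemoglobin effector 2,3-bisphosphoglycerate, had 35.6 ± 15.2 CPM in Arf6null and 29.7 ± 9.74 CPM in Arf6wt tumors (edgeR adjusted p = 0.625). As a sum per length, described here without a test or a share over all genes, Pgam1 and Bpgm did not overlap between groups. The sum was 40.1 to 56.5 RPKM in Arf6null and 25.8 to 34.4 RPKM in Arf6wt tumors. Neither gene separated the groups alone. In Arf6null replicate 6 Pgam1, at 23.55 RPKM, lay within the Arf6wt range of 15.6 to 28.95 RPKM. Bpgm in that tumor, at 16.54 RPKM, was the highest of the 12. Eno1, the ubiquitous enolase, ran from 521 to 832 CPM (median 688) in Arf6null and from 288 to 631 CPM (median 476) in Arf6wt tumors (log2 fold change 0.53, SE 0.19, adjusted p = 0.130 by edgeR). The neuron-type enolase Eno2 was lower in level per length and had a log2 fold change of 1.01 (SE 0.33, adjusted p = 0.106 by edgeR).

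Counts of Eno1, Gapdh and Mpc1 are uncertain because near-identical copies of each took many reads, in shares that varied between tumors. Eno1b, 99.5% identical to Eno1 over 1736 bases, had 20.9% to 21.9% of the Eno1 counts in the 6 Arf6null tumors. In Arf6wt replicates 1 to 6 it had 8.86%, 21.8%, 20.1%, 0.0525%, 8.41% and 8.97%, and replicate 4 held only 10 counts of it. Arf6wt tumors thus lay at 3 levels and Arf6null tumors at 1. Adding the counts of all copies gave Eno1 a log2 fold change of 0.70 (edgeR adjusted p = 0.0677). Gapdh had 90 near-identical copies, aligned over 200 or more bases at 95% identity or more. The one with the most counts was Gm13394, a processed pseudogene identical to Gapdh over 300 bases. It had 19.8%, 20.5%, 21.2%, 19.7%, 9.83% and 8.70% of the Gapdh counts in Arf6null replicates 1 to 6 and 19.6% to 23.1% in Arf6wt tumors. Here the tumors that stood apart were Arf6null replicates 5 and 6. Mpc1-ps, identical to Mpc1 over 261 bases, held most copy counts of that gene, and its copies together had 15.1% to 31.5% of the Mpc1 counts in Arf6null and 21.7% to 28.8% in Arf6wt tumors. With copies added, the calls among the 34 genes were the same 4. The cause of the uneven shares was not tested.

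**Figure D3:**
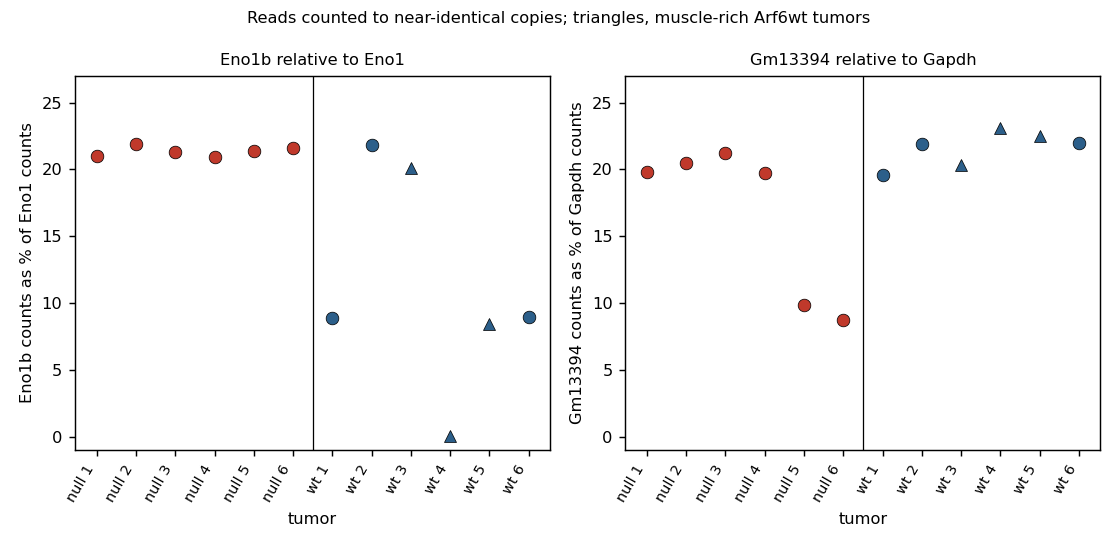
Counts of Eno1b as a percentage of Eno1 counts (left) and of Gm13394 as a percentage of Gapdh counts (right) in each tumor, Arf6null left of the line and Arf6wt right of it, with triangles for the muscle-rich Arf6wt tumors. Eno1b is near 21% in every Arf6null tumor and scattered in Arf6wt tumors, and Gm13394 is below 10% in Arf6null replicates 5 and 6.

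Pkm encodes pyruvate kinase of muscle and of most proliferating cells, as splice forms that gene counts do not separate. It was the most abundant of the 34 and ran from 2230 to 2971 CPM (median 2842) in Arf6null and from 1040 to 2428 CPM (median 1879) in Arf6wt tumors. Arf6null replicates 1 to 5 lay in a narrow band from 2793 CPM up and replicate 6 had 2230 CPM. The log2 fold change of Pkm was 0.64 (SE 0.18, adjusted p = 0.0741 by edgeR).

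**Figure D4:**
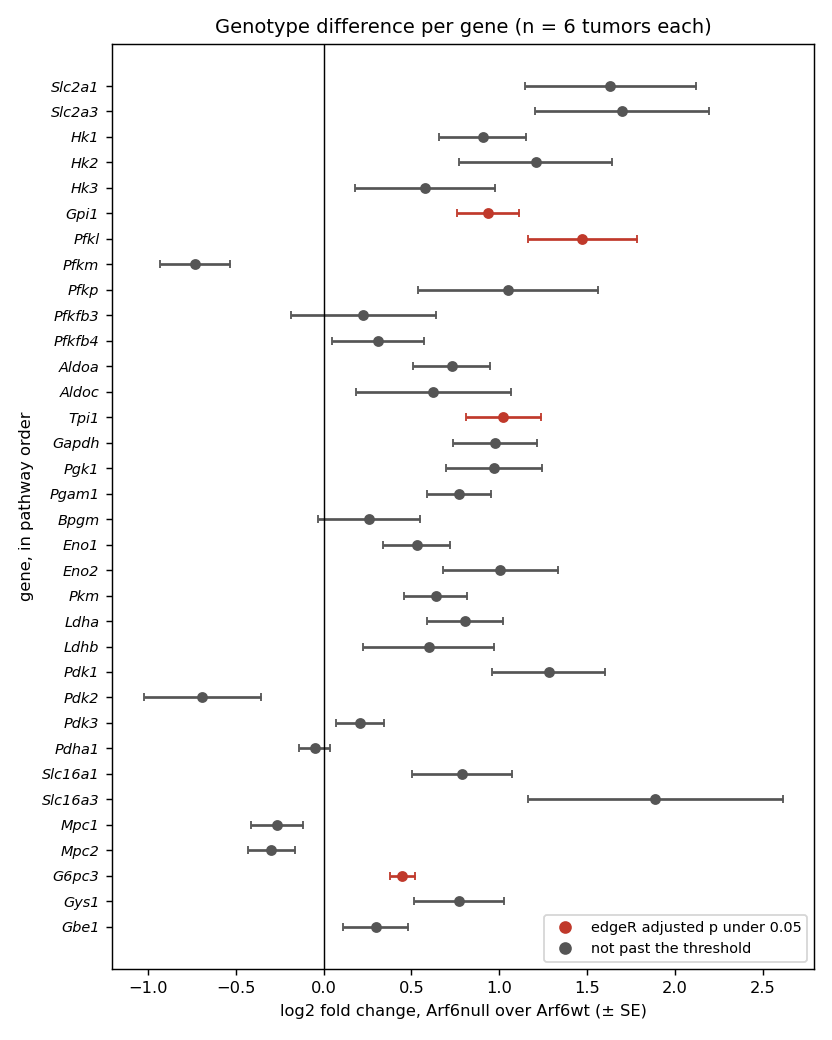
Log2 fold change of each gene (Arf6null over Arf6wt, x axis) with its standard error from edgeR, in pathway order from top to bottom, with red points for an adjusted p under 0.05 (n = 6 tumors each). Of the 34 points, 29 lie above 0, and those below 0 are Pfkm, Pdk2, Pdha1, Mpc1 and Mpc2.

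At the exit toward lactate, no gene passed by edgeR, and Ldha and Slc16a3 passed by DESeq2 and limma-voom. Ldha, the lactate dehydrogenase subunit that favors lactate formation, ran from 616 to 1355 CPM (median 1111) in Arf6null and from 412 to 879 CPM (median 592) in Arf6wt tumors (log2 fold change 0.80, SE 0.21, adjusted p = 0.0677 by edgeR, 0.00807 by DESeq2 and 0.0346 by limma-voom). Ldhb, the heart-type subunit, was highest in Arf6null replicate 6 at 114 CPM, and averaged 60.2 ± 29.4 CPM in Arf6null and 39.8 ± 18.5 CPM in Arf6wt tumors (edgeR adjusted p = 0.356). Slc16a1 and Slc16a3 encode the lactate exporters MCT1 and MCT4, of which Slc16a3 is typical of strongly glycolytic cells. Slc16a3 ran from 51.4 to 291 CPM (median 194) in Arf6null and from 3.75 to 113 CPM (median 44.1) in Arf6wt tumors, a log2 fold change of 1.89 that was the largest of the 34 and had a wide error (SE 0.73, adjusted p = 0.150 by edgeR). DESeq2 gave it 1.89 as well (adjusted p = 0.0454), and limma-voom a larger 3.02 (SE 0.77, adjusted p = 0.0427). The muscle-rich Arf6wt replicates 3 and 4 held 5.41 and 3.75 CPM of it, and without the 3 muscle-rich tumors the log2 fold change was 1.44 (edgeR adjusted p = 0.263). Slc16a1 ran from 72.0 to 281 CPM (median 212) in Arf6null and from 74.3 to 151 CPM (median 107) in Arf6wt tumors (log2 fold change 0.79, SE 0.29, adjusted p = 0.134 by edgeR), with Arf6null replicate 3 the lowest of all 12.

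The entry of pyruvate into mitochondria did not share the direction of the chain before it. Mpc1 and Mpc2 form the mitochondrial pyruvate carrier and Pdha1 is the catalytic alpha subunit of pyruvate dehydrogenase. Mpc1 ran from 10.3 to 14.8 CPM (median 12.2) in Arf6null and from 11.9 to 19.8 CPM (median 15.0) in Arf6wt tumors (log2 fold change -0.27, SE 0.15, adjusted p = 0.297 by edgeR, and -0.29 with the counts of its near-identical copies added), and Mpc2 had a log2 fold change of -0.30 (SE 0.14, adjusted p = 0.212 by edgeR). Pdha1 ran from 161 to 202.5 CPM (median 183) in Arf6null and from 164 to 207 CPM (median 194) in Arf6wt tumors (log2 fold change -0.05, SE 0.09, adjusted p = 0.769 by edgeR), and its sign turned without the muscle-rich tumors (0.04) and under the muscle covariate (0.02). Without the muscle-rich tumors the log2 fold changes of Mpc1 and Mpc2 were nearer to none, at -0.093 and -0.178 (edgeR adjusted p = 0.8315 and 0.6763). No difference of these 3 genes passed in any setting run. Per length the carrier pair summed to 9.40 ± 1.34 RPKM in Arf6null and 11.4 ± 1.77 RPKM in Arf6wt tumors.

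Pyruvate dehydrogenase kinases, which switch the enzyme off, differed in the sign of their fold changes. Pdk1, a known hypoxia target, averaged 67.1 ± 28.6 CPM in Arf6null and 27.6 ± 9.62 CPM in Arf6wt tumors (log2 fold change 1.28, SE 0.32, adjusted p = 0.0624 by edgeR), and 5 Arf6null tumors exceeded every Arf6wt tumor. Pdk2 averaged 15.8 ± 3.27 CPM in Arf6null and 25.6 ± 15.3 CPM in Arf6wt tumors (log2 fold change -0.69, SE 0.33, adjusted p = 0.234 by edgeR), and its log2 fold change was 0.001 once the muscle score entered the fit as a covariate. Pdk3 stayed between 21.1 and 23.6 CPM (median 22.4) in Arf6null and between 12.6 and 23.3 CPM (median 21.02) in Arf6wt tumors (edgeR adjusted p = 0.385). Of the summed RPKM of the 3 kinases, Pdk1 held 37.2 ± 9.37% in Arf6null and 19.3 ± 7.82% in Arf6wt tumors, 17.95 points apart (exact permutation p = 0.00866, adjusted p = 0.0520 over 18 shares). Pdk2 held 22.7 ± 5.87% in Arf6null and 39.6 ± 11.2% in Arf6wt tumors (exact permutation p = 0.0130, adjusted p = 0.0584). Neither share passed, and in both Arf6null replicate 6 lay among the Arf6wt tumors.

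**Figure D5:**
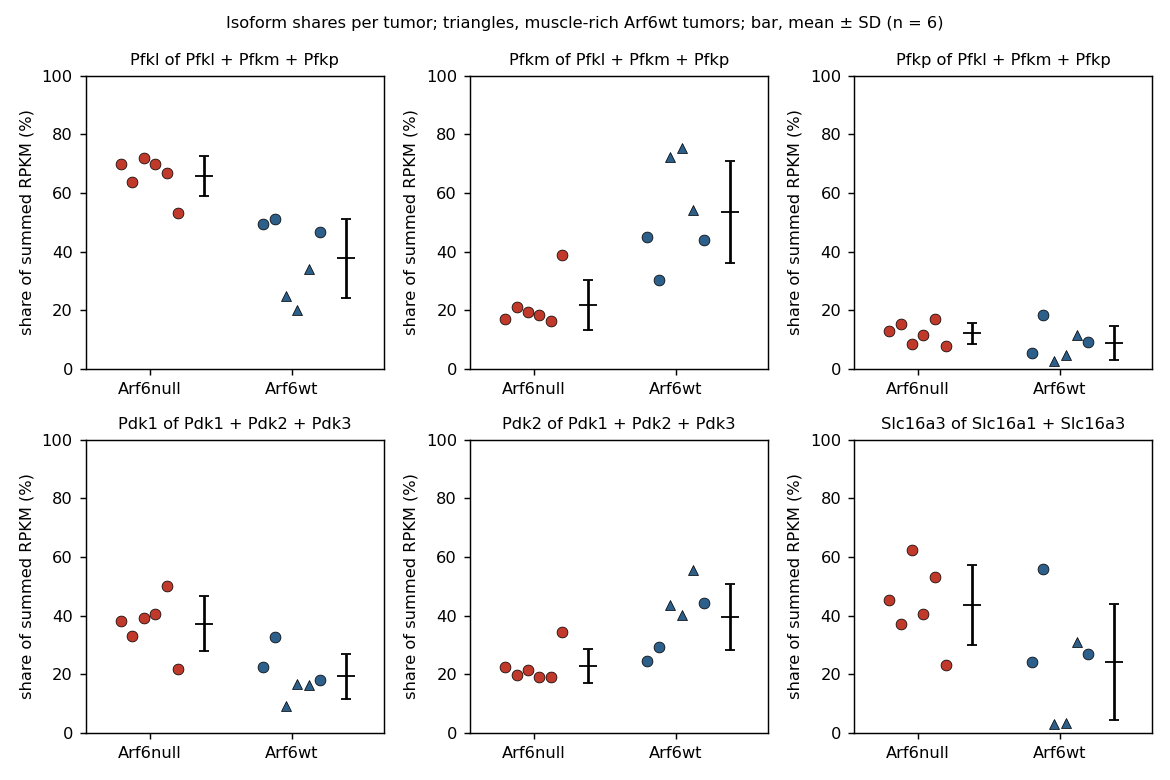
Share of each gene in the summed RPKM of its step in every tumor, for phosphofructokinases, pyruvate dehydrogenase kinases and lactate transporters, Arf6null left and Arf6wt right, with triangles for the muscle-rich Arf6wt tumors and a bar for mean ± SD (n = 6 each). The Pfkl panel shows no overlap, with Arf6null tumors from 53.3% to 72.0%, and in the Pfkm and Pdk2 panels Arf6null replicate 6 lies apart from the other Arf6null tumors.

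Of the 18 shares compared within 12 steps with more than 1 member, which include the carrier pair Mpc1 and Mpc2 and the glycogen enzymes Gys1 and Gbe1, 2 passed after adjustment, those of Pfkl and Pfkm, and 4 had an unadjusted p under 0.05. Shares of the same step depend on each other, so those of Pfkl and Pfkm are not separate results, nor are those of Pdk1 and Pdk2. The Slc16a1 share of the lactate transporters was 56.4 ± 13.6% in Arf6null and 75.8 ± 19.7% in Arf6wt tumors (exact permutation p = 0.0801, adjusted p = 0.288), with 96.8% and 96.7% in the muscle-rich Arf6wt replicates 3 and 4. Shares of Aldoa, Eno1 and Ldha in their steps lay at 99.6%, 89.1% and 88.3% in Arf6null and 99.5%, 91.3% and 87.0% in Arf6wt tumors, so the dominant form was the same in both groups.

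The 2 genes of glycogen storage among the 34 did not pass by edgeR, and Gys1 passed by DESeq2. Gys1, glycogen synthase, ran from 43.0 to 136 CPM (median 76.4) in Arf6null and from 37.9 to 74.8 CPM (median 43.9) in Arf6wt tumors (log2 fold change 0.77, SE 0.26, adjusted p = 0.109 by edgeR, 0.0455 by DESeq2 and 0.0777 by limma-voom). It overlaps Ruvbl2 on the opposite strand over 310 exon bases. Gbe1, the branching enzyme, was at 26.3 ± 5.59 CPM in Arf6null and 21.4 ± 5.82 CPM in Arf6wt tumors (edgeR adjusted p = 0.359).

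Related genes outside the 34 were followed in lists by role. Of 22 tested glycogen and gluconeogenesis genes 1 rose, the phosphoglucomutase Pgm2, at 191 ± 53.1 CPM in Arf6null and 99.3 ± 15.7 CPM in Arf6wt tumors (log2 fold change 0.95, SE 0.18, adjusted p = 0.0318 by edgeR, called in 6 of the 12 fits that leave out 1 tumor), and 0 fell. Of 32 tested hypoxia-responsive genes with no glycolytic role, 0 were called by edgeR, while 17 were higher and 1 lower at an unadjusted p under 0.05, against 11.0% and 12.4% of all tested genes. DESeq2 called 11 higher, against 5.78% of all genes, and limma-voom 4, against 2.98%. These shares of all genes apply to the lists that follow as well. Their median log2 fold change was 0.85, against -0.03 over all genes. Fam162a, a mitochondrial cell death gene, and Ankrd37 had the smallest p in this list, with log2 fold changes of 0.89 (edgeR adjusted p = 0.0566) and 2.12 (edgeR adjusted p = 0.0615). Of 20 tested genes of the tricarboxylic acid cycle, 0 were called by edgeR or limma-voom, 5 were higher at an unadjusted p under 0.05, and DESeq2 called 2 higher. The median of that list was 0.09, with Sdhd and Suclg1 having the smallest p (log2 fold changes 0.27 and 0.29).

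Other isozymes and transporters of the same steps showed no shared direction. Of 18 tested among 27 listed, 0 were called by edgeR, 3 were higher and 5 lower at an unadjusted p under 0.05, DESeq2 called 2 higher and 4 lower, limma-voom called 2 higher, and the median was 0.00. Pgp, which clears phosphoglycolate, had a log2 fold change of 0.40 (edgeR adjusted p = 0.0540), and the muscle enolase Eno3 one of -1.54 (edgeR adjusted p = 0.0580), which was -0.59 without the muscle-rich tumors (edgeR adjusted p = 0.331). All 22 skeletal muscle markers had negative log2 fold changes, with a median of -4.72 and a summed level of 10.8 to 102 CPM in Arf6null and 43.5 to 4313 CPM in Arf6wt tumors. Of these 1 fell by edgeR, Pvalb, a calcium buffer of fast muscle fibers, at 0.170 ± 0.152 CPM in Arf6null and 25.7 ± 37.3 CPM in Arf6wt tumors (log2 fold change -7.22, adjusted p = 0.0392), and it did not pass without the muscle-rich tumors (edgeR adjusted p = 0.186). DESeq2 called 20 of the 22 lower and limma-voom 0. Beyond the values with and without the muscle-rich tumors, the part of muscle in the Pfkm and Eno3 differences was not tested. The 9 other genes of pyruvate entry had 0 calls by edgeR or limma-voom, 2 higher and 1 lower at an unadjusted p under 0.05, and 1 higher call by DESeq2. Pdhb, the beta subunit of pyruvate dehydrogenase, and Pdp1, the phosphatase that switches the enzyme on, had log2 fold changes of 0.21 and 0.77 (edgeR adjusted p = 0.110 and 0.138).

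Of 20 tested regulators of these genes, 0 were called by edgeR or limma-voom, 1 was higher and 3 lower at an unadjusted p under 0.05, and DESeq2 called 1 lower. Txnip and Arrdc4 encode alpha-arrestins that restrain glucose uptake, and had the smallest p of the list. Txnip was at 184 ± 47.2 CPM in Arf6null and 290 ± 119 CPM in Arf6wt tumors (edgeR adjusted p = 0.147), and Arrdc4 at 11.7 ± 3.88 CPM in Arf6null and 22.4 ± 10.8 CPM in Arf6wt tumors (edgeR adjusted p = 0.121). The mRNA of Hif1a, an oxygen-sensing transcription factor named here after its values were seen, was at 194 ± 49.0 CPM in Arf6null and 193 ± 65.6 CPM in Arf6wt tumors (log2 fold change 0.01, SE 0.22, adjusted p = 0.983 by edgeR). Hif1a is known to be controlled mainly at the level of its protein, which was not measured here.

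Markers of several other cell types leaned to one side with few calls. The log2 fold change was negative for 14 of 16 macrophage and monocyte genes (median -0.32), 12 of 14 fibroblast genes (-0.79), 5 of 5 adipocyte genes (-2.56) and 6 of 9 neutrophil genes (-0.10), and positive for 5 of 5 red blood cell genes (1.16) and 3 of 5 melanocyte genes (0.08), against a median of -0.03 over all genes. Summed levels ran from 2793 to 17280 CPM in Arf6null and from 8965 to 26240 CPM in Arf6wt tumors for fibroblast markers, from 8.55 to 81.1 CPM in Arf6null and from 9.26 to 124 CPM in Arf6wt tumors for adipocyte markers, and from 15.3 to 373.5 CPM in Arf6null and from 19.3 to 169 CPM in Arf6wt tumors for red blood cell markers. Neutrophil markers summed to 44.3 to 207 CPM in Arf6null and 55.8 to 181 CPM in Arf6wt tumors, and melanocyte markers to 29.2 to 156 CPM in Arf6null and 45 to 139 CPM in Arf6wt tumors. Among 9 neutrophil, 5 red blood cell, 14 fibroblast, 5 adipocyte and 5 melanocyte genes tested, 0 were called by edgeR. At an unadjusted p under 0.05, 4 fibroblast, 2 adipocyte and 1 melanocyte genes were lower and 0 of any of these lists higher, and DESeq2 called 2, 2 and 1 lower. By limma-voom the 1 melanocyte gene was called lower and 0 others. The genes with the smallest p were Ms4a7 and Mrc1 of macrophages (log2 fold changes -0.68 and -0.92), Ngp and Mmp8 of neutrophils (-2.31 and 1.34), and the globin genes Hba-a2 and Hbb-bt (1.88 and 1.52). They were Fbln1 and Postn of fibroblasts (-1.53 and -2.40), Adipoq and Cidec of adipocytes (-2.56 and -2.87), and Kit and Ednrb of the melanocyte list (-1.54 and 0.36). The edgeR adjusted p of these 12 genes ran from 0.0629 to 0.648. The part of these cell types in the glycolysis values was not tested.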

How the data were processed

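Polyadenylated RNA of 12 tumors was sequenced after Direct-zol isolation and TruSeq Stranded mRNA preparation, per the labels' protocols. The submitters' processing notes list the tools STAR 2.7.3a, featureCounts 1.6.3 and DESeq2 1.26.0 and GRCm38 (mm10) as genome, without roles or order. The authors deposited 1 table of counts per gene, as whole numbers that were not normalized. For the counting step, the strand setting, the treatment of multi-mapping reads and the annotation version were not given in the sources read.

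Symbols and exon lengths came from GENCODE M21 of GRCm38, which held 55141 of 55487 identifiers, and the rest made up 0.0394% or less of any library. The symbol Aldoa belongs to 2 identifiers, and the one with the longer summed exon length was used. filterByExpr with a minimum count of 10 left 16225 genes with 99.87% of counts, 34 of the 34 described genes among them. Genotypes were compared over these genes in edgeR 4.0.16 under R 4.3.3 (quasi-likelihood test, TMM scaling, robust dispersions), with Benjamini-Hochberg adjustment and a threshold of 0.05. CPM uses TMM-scaled library sizes, and RPKM divides it by the union of exons in kilobases. Shares within a step are percentages of summed RPKM within a step, compared by an exact two-sided permutation test over all splits of the tumors and adjusted over 18 shares. Near-identical copies were sought with megablast (200 or more bases at 95% identity or more). Functions were tested on simulated counts.

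Members and lists were chosen with earlier results of these data known. Values in every tumor, as lowest, median and highest, are given for members past the threshold, for the most abundant member per length of each step and for single-gene steps, and members outside this rule were given more room after their values were seen. From each other list the genes past the threshold are named, or the 2 with the smallest p. Alternatives were DESeq2 1.42.0, limma-voom (3.58.1) with quality weights, scaling by median of ratios or by upper quartile, testing without a filter or with 10 CPM required in 6 libraries, a covariate for Y-linked expression or for the muscle score, leaving out the 3 muscle-rich Arf6wt tumors, and leaving out each tumor. Adding the counts of near-identical copies was chosen after seeing the data. No 2 libraries agreed within sampling noise. Library totals were 21007954 to 45688253 counts.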

Additional observations from a re-analysis of the deposited data

Results flagged for a closer look

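In 106 sets of 6 values, the level of each of the 34 genes, its share where a share within a step was compared, or the library total within a group, 8 held a tumor far from the other 5, where chance flags about 1 in 20 sets. Levels are given as log2 of CPM plus 1. Arf6null replicate 6 stood low for Pgk1, at 7.14 against 7.93 to 8.39 in the other Arf6null tumors, and for Pkm, at 11.1 against 11.5 (11.45 to 11.54). The same tumor stood high in the Pfkm share of phosphofructokinase, at 39.0% against 16.4% to 21.1%. It also stood high in the Pdk2 share of Pdk1, Pdk2 and Pdk3, at 34.4% against 18.99% to 22.6%. It stood low in the Ldha share of lactate dehydrogenase, at 72.0% against 89.2% to 96.3%. Arf6wt replicate 2 stood high for Gapdh, at 10.5 against 9.20 to 9.66 in the other Arf6wt tumors, and low for Mpc2, at 4.60 against 4.99 to 5.14. Arf6wt replicate 3, a muscle-rich tumor, stood low in the Aldoa share of aldolase, at 98.7% against 99.5% to 99.8%.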

How the results depend on the processing

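Over 22 alternatives, 743 of 747 gene values kept the sign of their log2 fold change, and 28 to 31 of the described genes were positive in each, with a median of 0.61 to 0.85. The 4 that turned were Pfkfb3 without Arf6null replicate 5 (-0.020, range -0.020 to 0.573 over the tumors left out), Pdk2 (0.001) and Pdha1 (0.020) with the muscle score as covariate, and Pdha1 without the muscle-rich tumors (0.043). The number called was less stable. Where edgeR made 4 higher calls and 0 lower, DESeq2 made 17 and limma-voom 15, each with 1 lower. Without a filter 3 were left, Pfkl not among them. The Y-linked covariate, the muscle covariate and the fit without the muscle-rich tumors left 0, and leaving out 1 tumor gave 0 to 15 higher and 0 to 1 lower. Over all tested genes the counts of 95 higher and 91 lower became 938 and 1051 with DESeq2, 483 and 448 with limma-voom, 14 and 16 with the Y-linked covariate, 5 and 17 with the muscle covariate, and 14 and 21 without the muscle-rich tumors. With upper-quartile scaling they were 87 and 123, and without a filter 72 and 55.

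Share differences (Arf6null minus Arf6wt, in points) without the muscle-rich tumors were 16.8 for Pfkl and -17.9 for Pfkm (adjusted p = 0.214 each, where a p of 0.0238 is the least that 84 splits give), and turned for Aldoa (-0.127) and Ldha (-0.473). The Slc2a1 share turned to -0.0340 in counts without length. Leaving out 1 tumor gave 24.7 to 30.9 for Pfkl, -36.3 to -27.3 for Pfkm, 15.4 to 21.04 for Pdk1, -19.9 to -13.6 for Pdk2, -25.8 to -15.3 for Slc16a1 and 3.83 to 7.43 for Gys1. It turned the sign of shares near 0: Slc2a1 (-1.58 to 0.775), Hk1 (-3.68 to 2.15), Hk2 (-1.08 to 5.49), Hk3 (-3.79 to 0.228), Pfkfb3 (-1.26 to 3.96), Aldoa (-0.137 to 0.0926), Ldha (-0.546 to 4.51), Pdk3 (-3.74 to 1.28) and Mpc1 (-0.110 to 1.64). The cause was not tested. No paired analysis was possible because no label ties a tumor to a tumor of the other genotype, and equal replicate numbers do not mark pairs.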
